A study of Homo sapiens with 2 samples.

Results

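The genes described here are the 10 serine/arginine-rich splicing factor genes SRSF1 and SRSF3 to SRSF11, that is, the SRSF genes other than SRSF2, in cells depleted of SRSF2. They were taken by name from the 54261 genes of the count table. The set was chosen from the family with the counts of both libraries already seen, and SRSF8 was singled out by its higher count after knockdown. The ratios between the libraries are therefore given as a description. Cultures of RKO, an established line from a human colorectal carcinoma, received either a control siRNA (si-NC) or 1 siRNA against SRSF2 (si-SRSF2), and poly(A) RNA was sequenced. No library of a stable line or of a second siRNA was included, and the labels give no time of harvest. The title of the knockdown library numbers the knockdown but does not name the siRNA. It was taken to be the 1 against SRSF2 that the study lists. There was 1 library in each group, so no value has a replicate check and no test was run. All intervals are 95% intervals that cover counting error only and leave out how much transfections vary.

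SR proteins carry RNA recognition motifs (RRMs) that bind exonic sequences and a domain rich in arginine and serine (RS domain) that contacts other parts of the splicing machinery. They help the spliceosome to recognise exons, and several also act in mRNA export and translation. Many SR protein genes control their own levels and those of their relatives through exons or introns whose inclusion brings in a premature stop codon, so that the transcript is degraded by nonsense-mediated decay. SRSF8 is a retrogene copy of SRSF2 that is found in primates.

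The reference sequences show how close the members are to the target of the siRNA. In the SRSF2 siRNA the capitals mark the 7 bases that pair with the seed of the guide strand, bases 2 to 8 of that strand. In the sites of the members, which are the best ungapped matches in the canonical transcripts of GENCODE release 44, the capitals mark the bases that differ from the siRNA. The member closest to the siRNA, the next one and a pair of members with opposite directions are shown.
si-SRSF2, listed strand: uccaaauccagGUCGCGAu
SRSF8: tccaaGtcAaggtcgcgat
SRSF6: AGcaGatccaggtcTcgat
SRSF5: tcAaGaAGcaggtcTcgat
SRSF7: tcAaaGtccagAtcTcCat
SRSF2 matched all 19 bases, on chromosome 17 of GRCh38 from 76736211 to 76736229 in its coding sequence. SRSF8 matched 17 of 19, on chromosome 11 from 95068007 to 95068025, also in the coding sequence. Its differences were A6G and C9A, with the siRNA base first and positions counted from 1 at the 5′ end of the listed strand. All 7 bases facing the seed were kept. Whether this likeness has a part in the values of SRSF8 was not tested. SRSF6 matched 15 bases, at an exon junction, SRSF4, SRSF5, SRSF7 and SRSF10 matched 14, SRSF11 13, SRSF3 12, and SRSF1 and SRSF9 11.

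Of the 11294 analysed genes with a canonical transcript under the same symbol, SRSF2 and SRSF8 were the 2 with a site of 17 or more matching bases, and the median best match was 12. The seed site GTCGCGA was present on the sense strand of 251 canonical transcripts (2.22% of 11294). Among the SRSF genes it was found once each in SRSF1, SRSF2, SRSF6 and SRSF8. The control siRNA matched no SRSF transcript by more than 13 of its bases.

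The si-NC library held 19931360 counts and the si-SRSF2 library 14512802. Counts were scaled with edgeR's TMM method and are given as CPM, the usual unit of counts relative to library size. A log2 ratio is that of si-SRSF2 over si-NC after adding 0.5 CPM to each, with a Clopper-Pearson interval. Analysed were the 12620 genes whose mean reached 1 CPM, and all 10 members were among them. Of the epithelial markers, KRT8 (547 counts with si-NC and 618 with si-SRSF2), KRT18 (632 and 477) and EPCAM (179 and 147) were present. KRT19 had 1 count in each library and CDH1 had 10 and 6. Of the intestinal markers CDX2 had 212 and 158 counts, while CDX1, KRT20 and LGALS4 were at 0 and VIL1 had 1 in each library. The 4 leukocyte markers had 0 to 2 counts and the 5 fibroblast or endothelial markers 0 to 13.

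The targeted gene was examined first. SRSF2 had 1964 counts with si-NC and 713 with si-SRSF2, or 98.5 and 49.1 CPM, so that 49.9% of the control level was left. On the opposite strand its locus overlaps MFSD11. These are bulk cultures, in which a loss in every cell and a loss in part of the cells cannot be told apart.

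SRSF8, with a single RRM that resembles that of SRSF2, was the member with the log2 ratio farthest from 0, although by CPM and by share of the family other members, SRSF5 and SRSF11 foremost, differed more. It had 274 counts with si-NC and 439 with si-SRSF2 although the latter library was the smaller. Its level was 13.7 CPM (exact Poisson interval 12.2 to 15.5) with si-NC and 30.2 CPM (27.5 to 33.2) with si-SRSF2. The level with si-SRSF2 was thus above the upper bound with si-NC, 2.20-fold higher (1.89 to 2.57). The log2 ratio of 1.11 ranked 70 among the 12620 analysed genes. Of the 7632 genes at least as abundant as SRSF8, 4 had a higher ratio, namely MARCKS (1.44), YWHAE (1.42), TOMM22 (1.32) and F3 (1.13). These 4 were named after their values were seen.

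The place and structure of SRSF8 differ from those of the other members. The gene (ENSG00000263465.5) occupies 95066919 to 95071225 of chromosome 11 (GRCh38, plus strand). Its canonical transcript is 1 exon of 4307 bases, whereas those of the other members have 4 to 12 exons. Over the aligned coding bases it was 84.7% identical to SRSF2, against 48.6% to 63.1% for the 9 other members. The longest run of identical coding bases was 34 for SRSF8 and at most 13 for the others. No 50-base stretch of the canonical transcript of SRSF8 occurred in a transcript of SRSF2. Stretches of that length making up 3.88% of the transcript occurred in transcripts of other genes, the pseudogenes SRSF8BP and SRSF8CP among them. GENCODE has no gene overlapping SRSF8 on either strand.

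**Figure D1:**
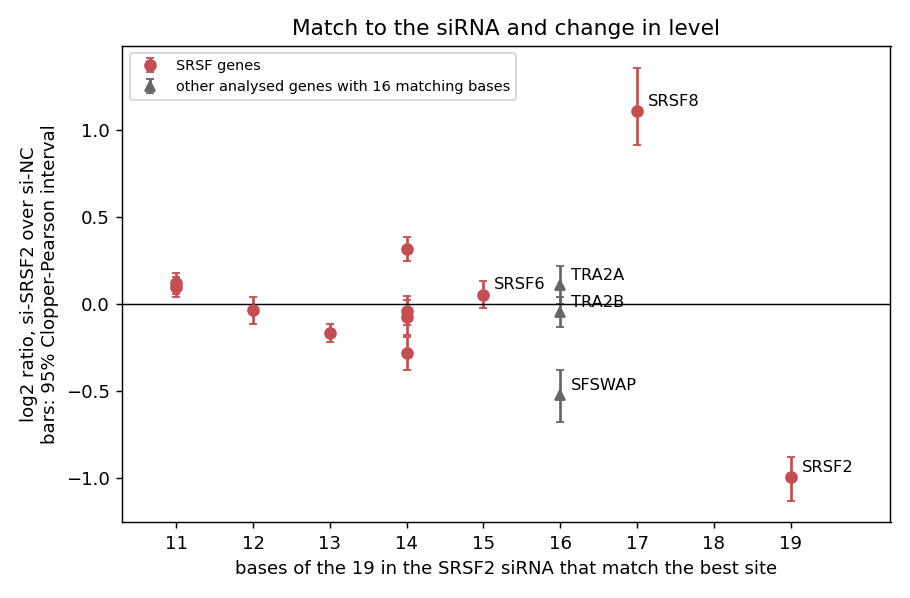
The log2 ratio of si-SRSF2 over si-NC (vertical axis, bars: 95% Clopper-Pearson interval) is plotted against the number of bases of the 19-base SRSF2 siRNA that match the best site of each canonical transcript, for SRSF2 and the 10 members (circles) and for the 3 other analysed genes with 16 matching bases (triangles). SRSF2, with 19 matching bases, lies at -0.997 and SRSF8, with 17, at 1.11.

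After SRSF2 and SRSF8, the closest sites were those of TRA2A, TRA2B and SFSWAP, with 16 matching bases each. TRA2A and TRA2B encode SR-like proteins that bind exonic enhancers. TRA2A had a log2 ratio of 0.11 (0.00 to 0.22) and TRA2B of -0.04 (-0.13 to 0.04). SFSWAP, a splicing regulator named after its values were seen, went from 1080 counts to 545, a log2 ratio of -0.52 (-0.68 to -0.38). It overlaps a gene on the opposite strand. The intervals of SRSF8 and, narrowly, TRA2A lay above 0, those of SRSF2 and SFSWAP below, and that of TRA2B held 0. Whether the match to the siRNA has a part in these values was not tested.

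SRSF3 and SRSF7 are the other members of the classical group with a single RRM, and both also serve as adaptors for mRNA export. SRSF7, which has a zinc knuckle beside its RRM, had 2474 counts with si-NC and 1480 with si-SRSF2, or 124 and 102 CPM. The intervals of these levels, 119 to 129 and 96.8 to 107, did not overlap, and the log2 ratio was -0.28 (-0.38 to -0.19), the lowest of the 10. SRSF3 had 3189 and 2266 counts, or 160.0 and 156 CPM, with a log2 ratio of -0.04 (-0.11 to 0.04). The interval for SRSF3 held 0.

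SRSF1, SRSF4, SRSF5, SRSF6 and SRSF9 carry a pair of RRMs. SRSF5 had 3727 counts with si-NC and 3382 with si-SRSF2, or 187 CPM (181 to 193) and 233 CPM (225 to 241). Its log2 ratio of 0.32 (0.25 to 0.38) corresponded to 125% of the control level (1.19-fold to 1.31-fold), the highest after SRSF8. It fell just short of the smaller of the limits used for counting members, a log2 ratio of 0.322. Its interval and that of SRSF7 lay on opposite sides of 0.

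SRSF1, a general splicing factor and the founding member of the family, had 5851 and 4558 counts, or 294 and 314 CPM, a log2 ratio of 0.10 (0.04 to 0.15). SRSF9 had 4811 and 3805 counts, or 241 and 262 CPM, a log2 ratio of 0.12 (0.06 to 0.18). Both lay slightly above 0 with intervals that left it out. In GENCODE, SRSF9 overlaps genes on the opposite strand, among them GATC, whose log2 ratio was 0.26. SRSF1, SRSF4, SRSF6 and SRSF11 also overlap other annotated genes. How the reads were assigned there is unknown, since the sources used here do not say whether counting used strand.

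SRSF6 had 3088 and 2335 counts, or 155 and 161 CPM, a log2 ratio of 0.05 (-0.02 to 0.13). SRSF4, with the longest coding sequence of the members (1482 bases), had 2020 and 1395 counts, or 101 and 96.1 CPM, a log2 ratio of -0.08 (-0.18 to 0.02). For neither gene did the interval leave out 0. SRSF6 shares 6.37% of its 50-base stretches with the pseudogene SRSF6P2, the highest share among the members.

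SRSF10 and SRSF11 are SR-like members. SRSF10, which turns into a general splicing repressor when it is dephosphorylated in heat shock and mitosis, had 2926 and 2076 counts, or 147 and 143 CPM, a log2 ratio of -0.04 (-0.12 to 0.04). SRSF11, the member with the most counts, had 7970 and 5169, or 399.9 and 356 CPM, a log2 ratio of -0.17 (-0.22 to -0.12). The large counts of SRSF11 gave a narrow interval that left out 0, at 89.1% of the control level. Of the pseudogenes named by an SRSF symbol followed by P and a number, none reached a mean of 1 CPM. Pseudogenes under other names, such as SRSF8BP and SRSF8CP, were not looked up. The highest, SRSF11P1, had 13 and 16 counts.

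**Figure D2:**
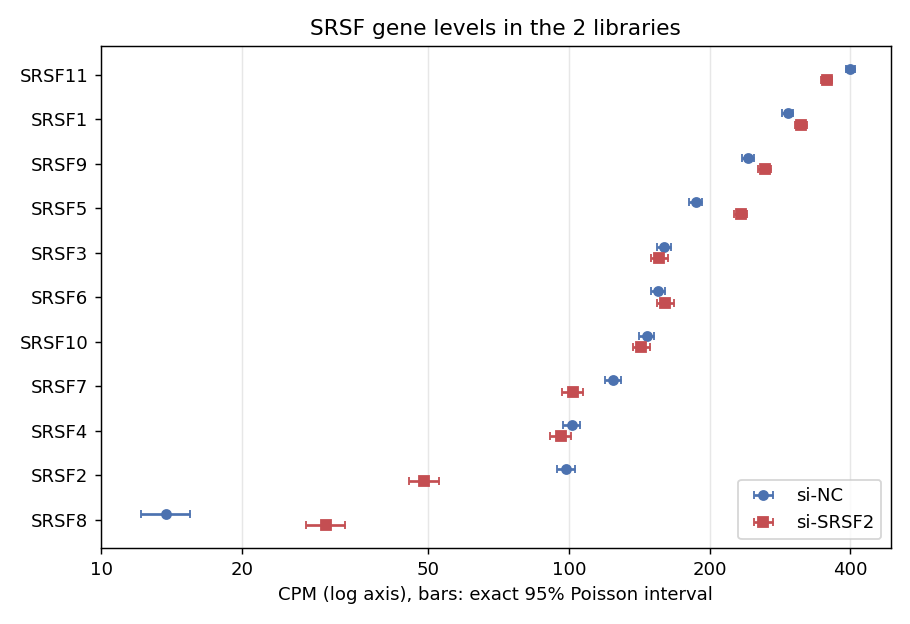
Levels of SRSF2 and the 10 members are plotted in CPM on a log axis, with circles for the si-NC library, squares for the si-SRSF2 library and bars for the exact 95% Poisson interval. SRSF2 went from 98.5 to 49.1 CPM and SRSF8 from 13.7 to 30.2 CPM, while the pairs of points of the other members lie close together.

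Read against all genes, the family was spread about 0. Of the 10 members, 5 had a log2 ratio above 0 and 5 below, with a median of 0.01, and over all analysed genes the median was -0.02. SRSF8 was the 1 member at least 2-fold higher, a size reached by 0.848% of all analysed genes. No member was at least 2-fold lower (0.499% of all genes). At the smaller limit, a log2 ratio of 0.322 in either direction, SRSF8 was again the 1 member that was higher (11.8% of all genes), and none was lower (13.3%). Among the 7632 genes at least as abundant as SRSF8 these shares were smaller, at 0.118% for 2-fold higher, 0.0393% for 2-fold lower, 5.97% for the smaller limit upwards and 8.84% for it downwards. The interval lay above 0 for 4 members, SRSF1, SRSF5, SRSF8 and SRSF9 (21.0% of all genes), and below 0 for 2, SRSF7 and SRSF11 (26.7%). Among the 7632 genes these shares were 23.9% and 33.0%. Intervals narrow with counts, and the members' median level of 158 CPM was well above the 33.1 CPM of all analysed genes.

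In the order of log2 ratios, SRSF8 was followed by SRSF5, SRSF9, SRSF1, SRSF6, SRSF3, SRSF10, SRSF4, SRSF11 and SRSF7. Neighbours in this order were compared by the ratio of their count ratios with an exact conditional interval, which needs no scaling of the libraries. SRSF8 exceeded SRSF5 by 1.77-fold (1.504 to 2.08), SRSF5 exceeded SRSF9 by 1.15-fold (1.08 to 1.22), and SRSF11 exceeded SRSF7 by 1.08-fold (1.01 to 1.17). For the other 6 of the 9 pairs the interval held 1, so that the order from SRSF9 to SRSF11 was not resolved step by step at this depth.

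**Figure D3:**
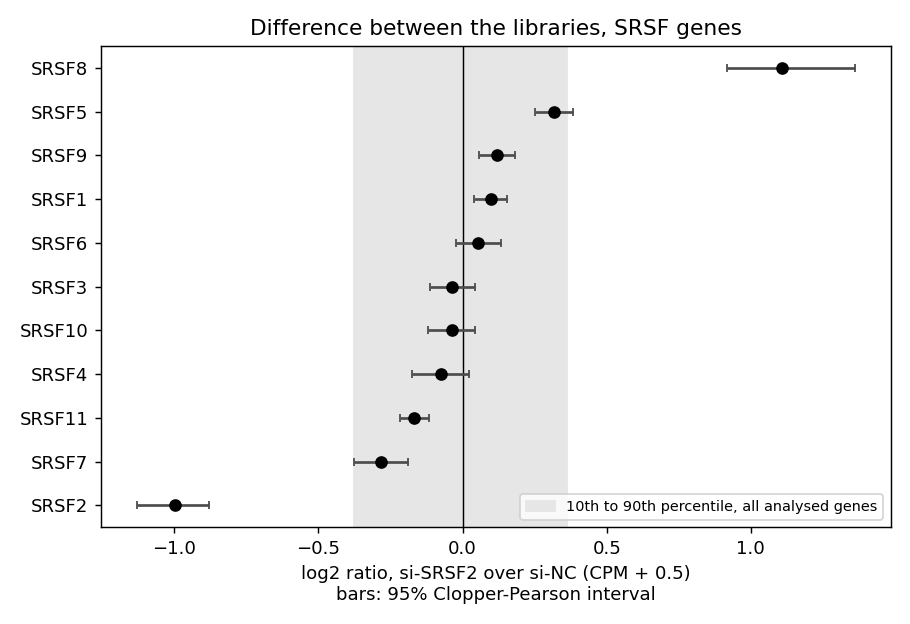
The log2 ratio of si-SRSF2 over si-NC is plotted for SRSF2 and the 10 members, with bars for the 95% Clopper-Pearson interval and a grey band from the 10th to the 90th percentile of all analysed genes. SRSF8 (1.11) lies to the right of the band and SRSF2 (-0.997) to the left, and the points of the other 9 members fall within it.

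**Figure D4:**
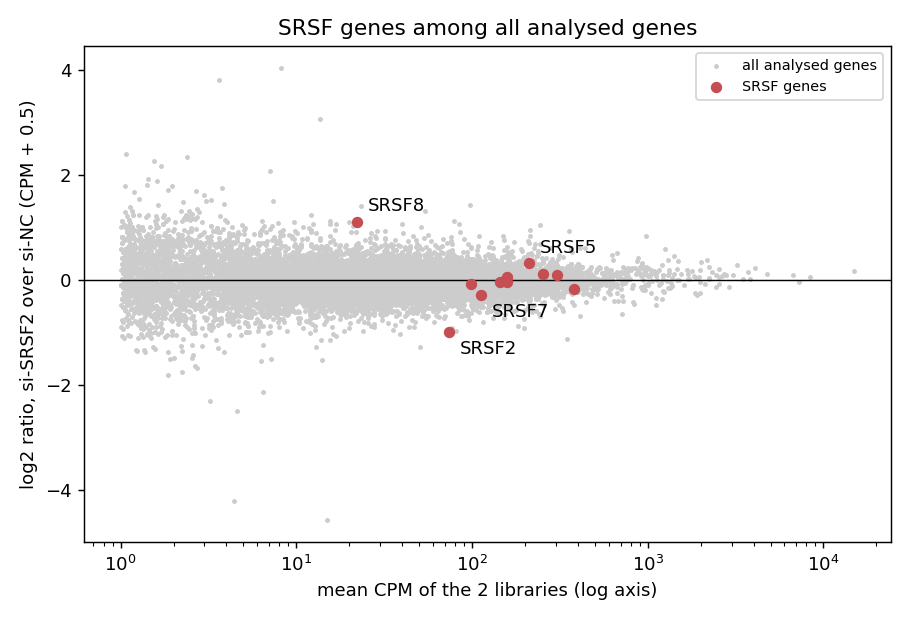
The log2 ratio of si-SRSF2 over si-NC is plotted against the mean CPM of the libraries (log axis) for the 12620 analysed genes (grey) and the SRSF genes (red). The spread of all genes narrows with the mean, and SRSF8 and SRSF2 lie near its upper and lower edges.

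The make-up of the family was compared within each library, where scaling has no effect. SRSF2 made up 5.13% of the 38294 counts of the 11 SRSF genes with si-NC (95% Wilson interval 4.91% to 5.35%) and 2.58% of 27618 with si-SRSF2 (2.40% to 2.78%). The share of SRSF8 went from 0.716% (0.636% to 0.805%) to 1.59% (1.45% to 1.74%). SRSF5 went from 9.73% to 12.2%, a larger gain than that of SRSF8 by share, whereas SRSF11 went from 20.8% to 18.7% and SRSF7 from 6.46% to 5.36%. For these 4 members, and for SRSF1 and SRSF9, the Wilson intervals of the libraries did not overlap. A lower SRSF2 by itself raises the shares of the other genes, and no intervals were computed without it. SRSF8 had 0.140 counts for each count of SRSF2 with si-NC and 0.616 with si-SRSF2, 4.41-fold more (exact conditional interval 3.70 to 5.27). Since SRSF2 was at 49.9% of its control level, a gene at an equal CPM in both libraries has a ratio to SRSF2 about 2-fold higher with si-SRSF2. The value for SRSF8 thus combines its own 2.20-fold difference with that of SRSF2. The other members lay on both sides of that value, from 1.65-fold (SRSF7, itself lower) to 2.499-fold (SRSF5).

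**Figure D5:**
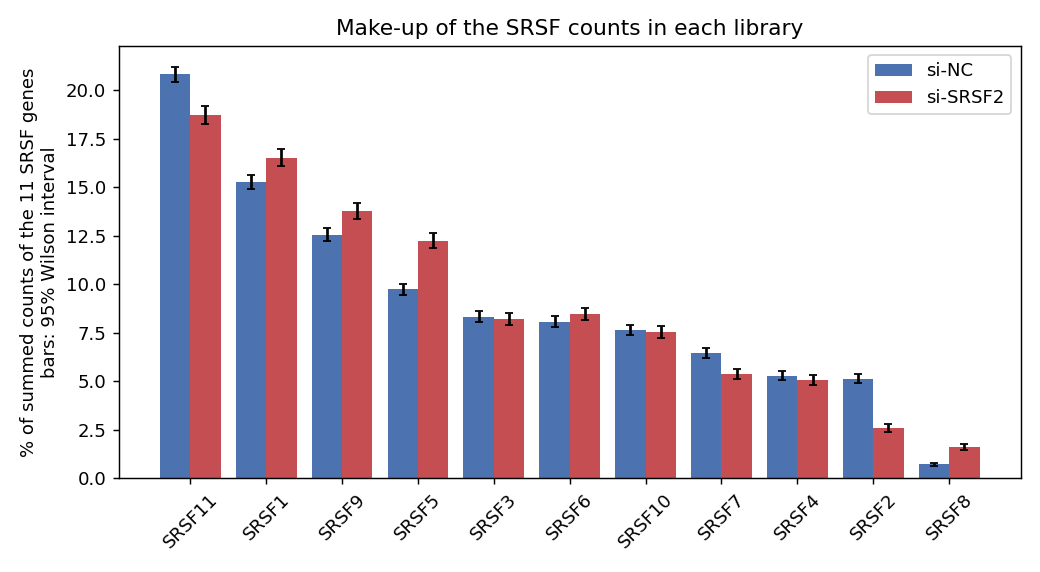
The share of each gene in the summed counts of the 11 SRSF genes (vertical axis, %) is plotted for the si-NC library (blue) and the si-SRSF2 library (red), with bars for the 95% Wilson interval. The SRSF2 share goes from 5.13% to 2.58% and that of SRSF8 from 0.716% to 1.59%, with the largest gain by share in SRSF5.

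In CPM, SRSF2 was lower by 49.4 (98.5 against 49.1), and the 10 members summed to 1823 CPM with si-NC and 1854 with si-SRSF2, a difference of 30.9. The gains were those of SRSF5 (46.0), SRSF9 (20.8), SRSF1 (20.5), SRSF8 (16.5) and SRSF6 (5.94), and the largest losses those of SRSF11 (-43.8) and SRSF7 (-22.2). All 11 genes together had 1921 and 1903 CPM, a log2 ratio of -0.01 (-0.04 to 0.01), which became 0.01 with upper-quartile factors. The direction of this sum therefore depended on the scaling. For the summed 10 members the log2 ratio was 0.02 (0.00 to 0.05), became 0.05 with upper-quartile factors, and was 0.01 (-0.01 to 0.03) without SRSF8.

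Counts and shares grow with transcript length, so levels of different genes are given here per kb, first of canonical transcript. In si-NC, SRSF9 was the most abundant at 209.5 CPM per kb, followed by SRSF5 (125) and SRSF11 (101), and SRSF8 was the least abundant at 3.19. SRSF2 ranked 6 of 11 with si-NC, with 52.2 CPM per kb, and 9 of 11 with si-SRSF2, with 26.0, where SRSF10 (18.7) and SRSF8 (7.02) were below it. SRSF8 stood at 6.12% of the level of SRSF2 with si-NC and at 27.0% with si-SRSF2. The order depended on the length used. With the union of all annotated exons, SRSF9 was again the highest with si-NC, at 61.0 CPM per kb, but was followed by SRSF1 (50.8), SRSF11 (47.2) and SRSF5 (34.9). On that length SRSF2 ranked 5 with si-NC and 8 with si-SRSF2, where SRSF4 (10.9) also lay below it (16.5). SRSF8 was the lowest on either length, at 9.64% of SRSF2 with si-NC and 42.5% with si-SRSF2 on the union length. The annotated exons of SRSF2 add up to 2976 bases against 1888 in its canonical transcript.

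Annotated transcripts subject to nonsense-mediated decay were found for each of the 10 members, from 1 each in SRSF5, SRSF6 and SRSF8 to 6 in SRSF7. SRSF5 had 8 annotated transcripts with a retained intron, the most of any member, and SRSF6 and SRSF8 had 0. In the order of log2 ratios from SRSF8 down to SRSF7, the numbers subject to decay were 1, 1, 5, 3, 1, 2, 2, 2, 4 and 6, and whether they bear on the ratios was not tested. The deposited values are totals per gene, so transcripts that encode the full protein and those with a premature stop codon were counted together.

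The other genes of the pathway were 35 genes for further proteins with RS domains. SFSWAP, which also encodes an arginine- and serine-rich protein, was not in this list, and its log2 ratio of -0.52 would be the next to lowest of it. SRSF12, the remaining SRSF gene, had 1 count and 0 and was not analysed. Of the 34 analysed, 1, or 2.94%, was higher by at least the smaller limit and 4, or 11.8%, were lower. The shares were 11.8% and 13.3% of all analysed genes, and 5.97% and 8.84% of the 7632 at least as abundant as SRSF8. None of the 34 differed 2-fold. The interval lay above 0 for 12 (35.3%, against 21.0% of all analysed genes) and below 0 for 12 (35.3%, against 26.7%). Of the 7632 genes, 23.9% had an interval above 0 and 33.0% below, the latter close to the share of the list. The median level of these genes, 118 CPM, was also above the 33.1 CPM of all analysed genes, and the median log2 ratio was 0.00, against -0.02 for all analysed genes. The range of the list ran from -0.54 to 0.58, so that SRSF8 lay above all 34.

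The highest ratios were those of LUC7L2 (158 and 176 counts, 0.58), LUC7L3 (2526 and 2186, 0.25) and PRPF38B (1699 and 1404, 0.18). LUC7L2 and LUC7L3 encode U1 snRNP-associated proteins that act on the choice of the 5′ splice site. LUC7L2 overlaps FMC1 and a readthrough gene on the same strand, and LUC7L3 overlaps another gene on its own strand. Both counts are uncertain. The lowest were RSRP1 (1054 and 525 counts, -0.54), SCAF11 (5144 and 2940, -0.35) and BUD13 (790 and 453, -0.34). RSRP1 overlaps other genes on both strands and SCAF11 a gene on the opposite strand, and their counts are uncertain too. BUD13 is a subunit of the retention and splicing complex. The 4th gene lower by at least the smaller limit was SRRM1, a splicing coactivator that was named after its values were seen (5129 and 2975 counts, -0.33). With upper-quartile factors 2 in place of 4 genes passed this limit.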

How the data were processed

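The 2 siRNA-transfected RKO libraries (TruSeq Stranded mRNA, 150 bp pairs) were compared. The authors aligned clean reads to GRCh38 with HISAT2 (2.0.4 per the labels), counted them with HTSeq and deposited raw counts per gene symbol. The strand mode of counting is not given in the sources used here, and 16148 symbols have the LOC form of NCBI although Ensembl 100 is named.

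CPM used edgeR 4.0.16 TMM sizes in R 4.3.3. Intervals were computed in SciPy 1.17.1 and alignments in Biopython 1.88. Transcripts were from GENCODE release 44, matched by symbol for 89.5% of analysed genes. siRNA sequences were the study's own. The members and lists were chosen with earlier results of these data known. Named genes were the 10 members, SRSF2, SRSF pseudogenes of at least 1 CPM and the 3 highest and 3 lowest other RS-domain genes. SFSWAP, TRA2A, TRA2B, GATC, SRSF11P1, SRRM1 and the 4 genes ranked above SRSF8 were named outside this rule, after their values were seen. Simulated data were Poisson counts with no spread between transfections, the model on which the intervals rest. In them 200 of 12620 genes were changed 4-fold. Of these 100% passed 2-fold, as did 4 unchanged genes, and 95.0% of intervals held the true ratio. The simulation cannot show how transfections vary. At these depths 3 counts, the limit of a count of 0, were 0.151 and 0.207 CPM. Alternatives were scaling by total counts, by upper-quartile factors or by the size factors of DESeq2 1.42.0, a pseudocount of 0.1 or 2 CPM, a minimum of 5 CPM or none, and leaving out the 20 most abundant and the mitochondrial genes.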

Additional observations from a re-analysis of the deposited data

How the results depend on the processing

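No paired analysis was possible because a single library stood for each group, and for the same reason no replicate could be left out. The log2 ratio of each of the 10 members stayed within its counting interval and kept its direction under the 8 alternatives, of which those on the filter change only the set of genes analysed and cannot move a ratio. That of SRSF8 ranged from 1.03 with a pseudocount of 2 CPM to 1.13 with upper-quartile factors. Upper-quartile factors moved the median of all genes from -0.02 to 0.00. With them, 2 members, SRSF8 and SRSF5, passed the smaller limit upwards (12.9% of all analysed genes), the interval of 5 members lay above 0, SRSF6 being added (23.9%), and 2 in place of 4 other RS-domain genes passed the limit downwards (11.8%). With these factors the summed 10 members had a log2 ratio of 0.05. The level of SRSF8 per kb relative to SRSF2 in si-SRSF2 was 42.5% with the union of exons as the length. The gain in the share of SRSF8, 0.874 percentage points, was 0.877 when SRSF2 was left out of the sum. Depth limits SRSF8 most, whose interval was the widest of the 10.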
